A study of Mus musculus with 6 samples.

Results

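The enzymes of leukotriene and prostaglandin synthesis were followed here as 9 genes, Alox5, Alox5ap, Lta4h, Ltc4s, Alox12, Alox15, Ptgs1, Ptgs2 and Hpgds, taken by their symbols from the 16440 genes of the deposited table. All 9 were in the table and all 9 passed the filter on low values. RNA-seq had been made of 3 libraries of normal myeloid progenitors (MPs), sorted from the bone marrow (BM) of FVB N/J mice as Lin-Sca-1-c-Kit+ cells, and of 3 libraries of c-Kit+ cells of acute promyelocytic leukemia (APL) from the same strain. The APL arose in hMRP8-PML/RARα transgenic mice, in which the human MRP8 promoter drives the PML/RARα fusion in myeloid cells. The leukemic cells had been marked with GFP by the retroviral vector MigR1 and first transplanted into sub-lethally irradiated syngeneic mice for expansion, and the labels name no drug treatment of them. No transplant or vector is described for the normal MPs, and the sort differed, since Lin and Sca-1 are named only for the MPs. The leukemia, the transplant, the vector and the sort therefore cannot be told apart in this comparison. The paper describes the normal MPs as a mixture of progenitors, among them those of granulocytes, monocytes, megakaryocytes and red cells. The study's methods give the age of the recipients in weeks, which is that of young adult mice. The age of the donors of normal MPs is not given in the sources used here. The series calls the 3 libraries of a group biological replicates without saying whether each came from its own mouse, so n counts libraries and the p-values measure only the spread between these libraries, which may be technical.

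Leukotrienes and prostaglandins are short-lived lipid mediators, called eicosanoids, that are made from arachidonic acid released from membrane phospholipids. The protein of Alox5ap presents arachidonic acid to 5-lipoxygenase (Alox5), which makes leukotriene A4, and this is turned into leukotriene B4 by the hydrolase Lta4h or into leukotriene C4 by the synthase Ltc4s. The cyclooxygenases Ptgs1 and Ptgs2 begin the prostaglandin branch, and Hpgds makes prostaglandin D2 from their product. Neutrophils are known for leukotriene B4, and mast cells, basophils and eosinophils for leukotriene C4.

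In c-Kit+ APL progenitors the transcripts of the leukotriene B4 branch and of both cyclooxygenases were higher than in normal MPs, and those of the leukotriene C4 synthase Ltc4s and the prostaglandin D synthase Hpgds were lower. Alox5, Alox5ap, Lta4h and Ptgs1 rose by 1.64-fold to 2.02-fold and Ptgs2 by 14.7-fold. Ltc4s and Hpgds, low in MPs already, fell nearly to the limit of detection. Alox12 and Alox15 did not pass the test. A gene was called when limma, fitted over 14595 genes on log2(scaled fragments + 1), gave a Benjamini-Hochberg adjusted p under 0.05 and a fold change over 1.5. Scaled fragments are the deposited estimates of sequenced fragments per gene after the authors' scaling of each library, and the added 1 makes the folds of genes with few fragments too small. By this rule 5 of the 9 enzymes were higher and 2 were lower in APL, a share of 77.8%, beside 46.1% of all genes tested, 21.7% being higher and 24.4% lower. At an unadjusted p under 0.05 the enzymes' counts were again 5 and 2, beside 22.1% of all genes higher and 24.8% lower, or 46.8% in either direction. With a fold over 2 at the adjusted p, 2 were higher (Alox5ap and Ptgs2) and 2 lower (Ltc4s and Hpgds), beside 14.9% of all genes higher and 16.6% lower, or 31.5% in either direction. Both groups of libraries were apart without overlap for 7 of the 9 genes, 5 with APL higher and 2 with APL lower, beside 70.9% of all genes tested, 31.1% with APL higher and 39.8% with APL lower. The median log2 fold change was 0.82 over the 9 genes and −0.10 over all genes tested. In bulk samples fewer cells of a type and less RNA per cell cannot be told apart.

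**Figure D1:**
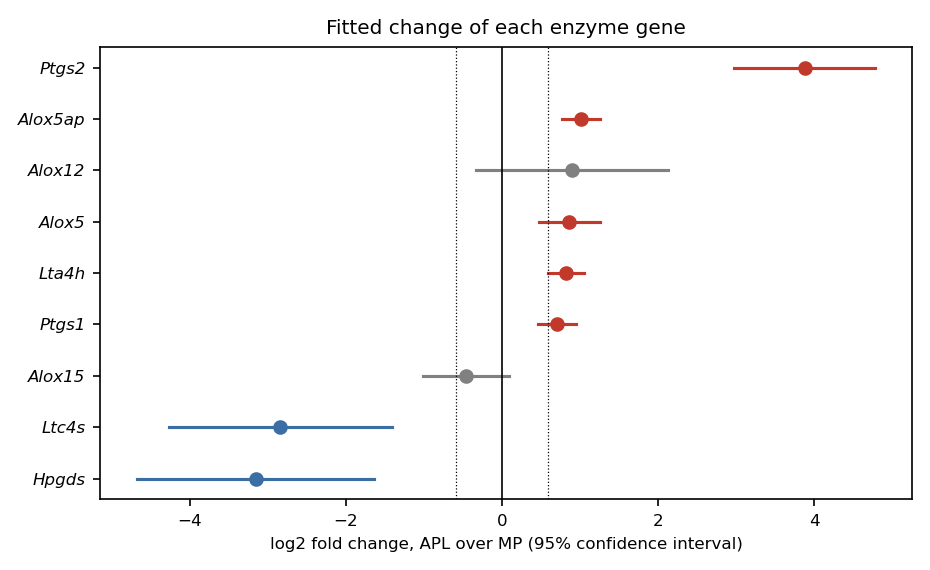
Fitted log2 fold change of the 9 enzyme genes, APL over MP (x axis), with limma's 95% confidence interval as the line; dotted lines mark a fold of 1.5 in either direction. Red genes were called higher, blue genes lower and grey genes were not called, and Ptgs2 at 3.88 and Hpgds at −3.16 lie at the ends.

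The promoters of 4 of the called genes are shown because these genes changed in opposite directions, as the 250 bases before the start of the gene in RefSeq on GRCm38.p6 (mm10), read 5′ to 3′ on the strand of the gene. Capitals mark every match to any of 5 short motifs of blood cell transcription factors on either strand.
Alox5 (chr6:116461179-116461428, minus strand): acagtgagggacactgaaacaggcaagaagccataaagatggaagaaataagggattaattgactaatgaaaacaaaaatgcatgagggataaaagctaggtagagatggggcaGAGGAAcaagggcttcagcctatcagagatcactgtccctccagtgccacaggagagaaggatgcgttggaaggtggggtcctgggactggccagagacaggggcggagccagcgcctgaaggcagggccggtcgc
Ptgs2 (chr1:150099781-150100030, plus strand): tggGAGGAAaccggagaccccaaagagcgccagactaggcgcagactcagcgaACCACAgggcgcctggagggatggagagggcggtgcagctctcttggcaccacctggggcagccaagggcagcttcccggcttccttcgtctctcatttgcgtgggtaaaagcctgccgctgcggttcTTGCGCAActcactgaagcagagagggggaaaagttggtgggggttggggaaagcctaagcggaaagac
Ltc4s (chr11:50238533-50238782, minus strand): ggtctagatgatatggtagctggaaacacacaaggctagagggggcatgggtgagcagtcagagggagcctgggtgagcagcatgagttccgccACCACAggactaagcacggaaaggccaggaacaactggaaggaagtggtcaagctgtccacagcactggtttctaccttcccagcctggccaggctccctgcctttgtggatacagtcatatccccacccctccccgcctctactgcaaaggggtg
Hpgds (chr6:65144731-65144980, minus strand): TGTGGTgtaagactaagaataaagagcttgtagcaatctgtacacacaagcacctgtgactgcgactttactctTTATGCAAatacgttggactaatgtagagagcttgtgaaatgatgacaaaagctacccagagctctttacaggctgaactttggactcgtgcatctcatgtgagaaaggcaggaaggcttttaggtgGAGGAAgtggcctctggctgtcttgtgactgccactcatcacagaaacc
No matches of different motifs overlapped in these promoters. A promoter was given for 7 of the 9 genes. Alox5ap and Alox15 had none. GAGGAA, the core bound by PU.1, was in 6 of the 7 windows, missing from that of Ltc4s, and in 23.3% of 32851 windows of the same length. TTGCNNAA, a C/EBP motif, was in the windows of Ptgs2 and Hpgds and in 9.56% of all windows. TGTGGT, a RUNX motif, was in the windows of Ptgs2, Ltc4s and Hpgds and in 14.0% of all windows. AGATAA, the motif of GATA factors, was in none of the 7 windows and in 9.99% of all windows. AGGTCA, a core motif of nuclear receptors such as the retinoic acid receptors, was in none of the 7 and in 14.0% of all windows. The genes that rose and those that fell therefore shared motifs, with Ptgs2 and Hpgds holding the same 3, and a match of letters is a description and not a site.

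Alox5, the 5-lipoxygenase gene (ID 11689, chr6:116410071-116461178), had 459, 305 and 497 scaled fragments in MP libraries 1, 2 and 3 and 722, 789 and 738 in APL libraries 1, 2 and 3. Every APL library was above every MP library, and MP library 2 was the lowest of the 6. The log2 fold change was 0.86 with an SE of 0.17, a rise of 1.82-fold (limma, adjusted p = 0.0017). Alox5ap, the gene of the 5-lipoxygenase activating protein (ID 11690, chr5:149265058-149288047), had 2091, 1866 and 2492 scaled fragments in the MP libraries and 4059, 4591 and 4288 in the APL libraries. The groups did not overlap. Alox5ap rose by 2.02-fold, with a log2 fold change of 1.01 and an SE of 0.11 (limma, adjusted p = 3.8e-05). Both genes had their lowest value in MP library 2.

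Lta4h, the leukotriene A4 hydrolase gene (ID 16993, chr10:93453396-93484896), had 12441, 10037 and 10804 scaled fragments in the MP libraries and 18658, 19039 and 20708 in the APL libraries. By FPKM it was the highest of the 9 transcripts in every library, and its groups did not overlap. It rose by 1.76-fold, with a log2 fold change of 0.82 and an SE of 0.10 (limma, adjusted p = 0.0001). Ltc4s, the leukotriene C4 synthase gene (ID 17001, chr11:50236472-50238471), was the opposite case. It had 5.62, 11.4 and 28.0 scaled fragments in the MP libraries and 0, 0.867 and 2.47 in the APL libraries, which before scaling were 6, 12 and 31 fragments against 0, 1 and 2. The groups did not overlap, MP library 3 alone held most of the MP fragments, and all 3 APL libraries were at or under 3 fragments, a level treated here as not told apart from absence. Under the authors' scaling of the libraries, the summed 49 fragments of MPs against 3 of APL gave a 14.2 times lower level in APL. Its exact 95% interval was 4.59 to 71.4 and covers counting error only. The fitted log2 fold change was −2.84 with an SE of 0.63 (limma, adjusted p = 0.0034).

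The branch point of leukotriene A4 was also compared within libraries, as a ratio of FPKM, which divides fragments by the length of the transcript and by the depth of the library and so allows genes of different length to be set side by side. The ratio of Lta4h to Ltc4s was 305, 122 and 54.4 in the MP libraries and 3045 and 1142 in APL libraries 2 and 3, with none for APL library 1 because Ltc4s was listed at 0 there. The difference of the mean log2 ratios was 3.88 and the libraries did not overlap, yet an exact permutation test (two-sided) of 3 against 2 libraries gave p = 0.1, the smallest it can give. The ratio of Alox5ap to Alox5 was 21.4, 29.3 and 23.1 in the MP libraries and 26.7, 27.9 and 26.5 in the APL libraries. These overlapped, with a difference of 0.15 in the mean log2 ratio (exact permutation test, two-sided, p = 0.4), so a change of this ratio was not detectable with 3 libraries a group.

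Ptgs2, the inducible cyclooxygenase gene (ID 19225, chr1:150100124-150108012), had 17.8, 9.52 and 7.21 scaled fragments in the MP libraries and 201, 103 and 243 in the APL libraries. The groups were far apart, although APL library 2 had the lowest value of its group. The log2 fold change was 3.88 with an SE of 0.40, a rise of 14.7-fold (limma, adjusted p = 3e-05), the widest of the 5 rises. Even so, Ptgs2 stayed a transcript of low abundance, with a mean FPKM of 0.0977 ± 0.0464 (SD, n = 3) in MPs and 1.54 ± 0.593 (SD, n = 3) in APL. Ptgs1, the cyclooxygenase gene that many cells express constantly (ID 19224, chr2:36230426-36252269), had 1352, 1017 and 1098 scaled fragments in the MP libraries and 1790, 1911 and 1933 in the APL libraries. The groups did not overlap. It rose by 1.64-fold, with a log2 fold change of 0.71 and an SE of 0.11 (limma, adjusted p = 0.00035), but when libraries were scaled to the same total its log2 fold change was 0.58, just under the 1.5-fold limit. By FPKM, Ptgs1 exceeded Ptgs2 by 120, 169 and 229 times in the MP libraries and by 13.6, 28.4 and 12.5 times in the APL libraries. The mean log2 ratio was lower by 3.31 in APL, and the exact permutation test (two-sided) gave p = 0.1, the smallest for 3 against 3. With 0.1 added to each FPKM it was lower by 2.32.

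Hpgds, the gene of the hematopoietic prostaglandin D synthase (ID 54486, chr6:65117293-65144730), had 29.0, 12.4 and 26.2 scaled fragments in the MP libraries and 5.89, 0 and 1.23 in the APL libraries. These were 31, 13 and 29 fragments before scaling against 5, 0 and 1, so that all APL libraries lay below all MP libraries. The summed 73 fragments against 6 corresponded to a level 10.6 times lower in APL, with an exact 95% interval of 4.64 to 29.8 for counting error only. The fitted log2 fold change was −3.16 with an SE of 0.67 (limma, adjusted p = 0.0026). It was −3.89 without APL library 1 and −2.50 without APL library 2, and −1.32 when fitted on FPKM with a pseudocount of 0.1.

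The other lipoxygenases did not pass the test. Alox15, whose enzyme oxidizes arachidonic acid at carbons 12 and 15 (ID 11687, chr11:70344147-70352031), had 149, 112 and 120 scaled fragments in the MP libraries and 63.6, 115 and 104 in the APL libraries. The groups overlapped, APL library 1 being the lowest of the 6, and the log2 fold change of −0.46 had a 95% interval of −1.01 to 0.09 (limma, adjusted p = 0.12). With libraries scaled to the same total it was −0.59, and Alox15 was then called lower. Alox12, the platelet-type lipoxygenase gene (ID 11684, chr11:70241455-70255341), had 2.81, 2.86 and 1.81 scaled fragments in the MP libraries and 10.6, 1.73 and 7.41 in the APL libraries. APL library 2 was below all MP libraries and the other two were above them. Only 8 fragments in MPs and 17 in APL stood behind these values, a ratio of 2.44 with an exact 95% interval of 0.997 to 6.53. The log2 fold change of 0.90 had an interval of −0.33 to 2.12 (limma, adjusted p = 0.17), and it was 1.52 and called without APL library 2. No difference in Alox12 was detectable at this depth with all libraries.

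**Figure D2:**
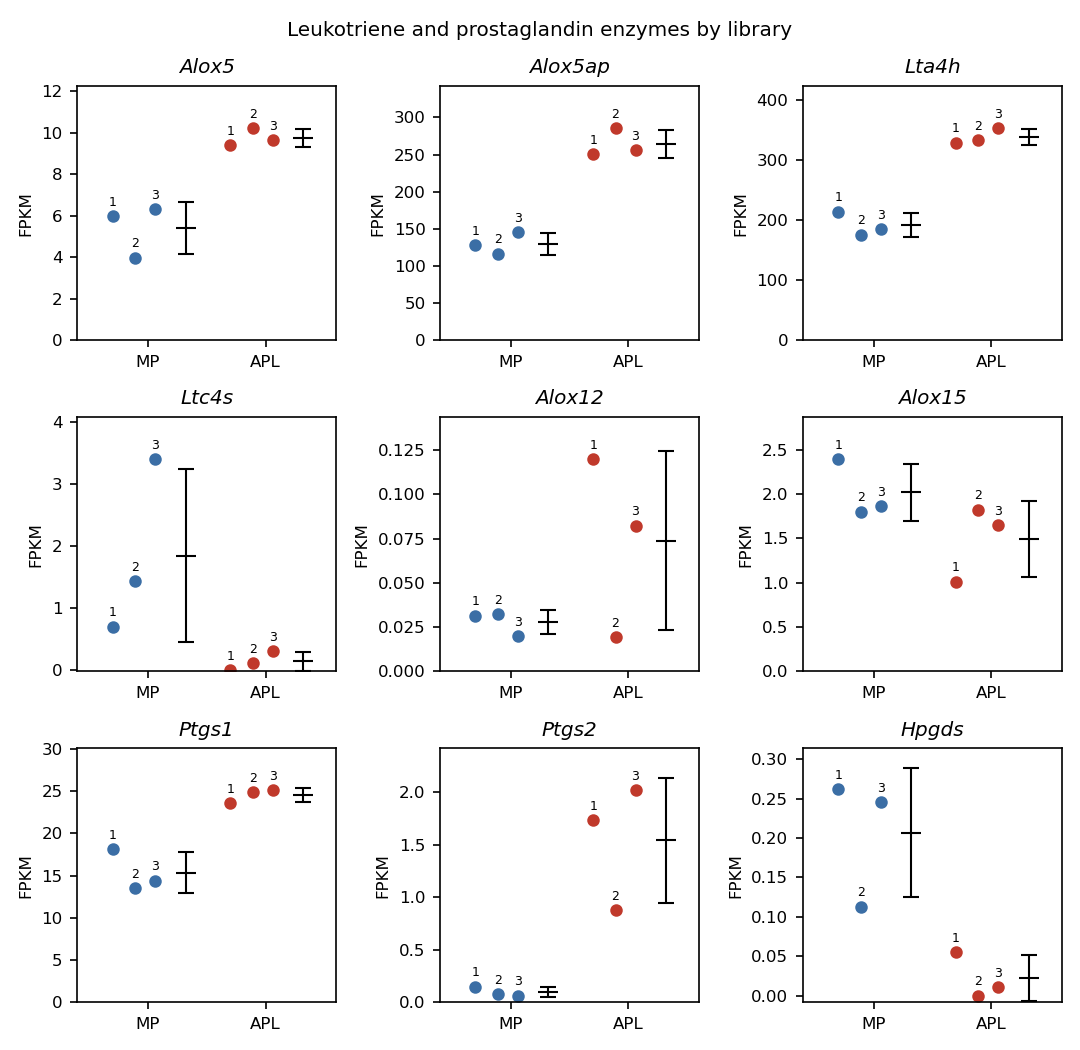
FPKM of the 9 enzyme genes in each library (y axis, linear, a different range in each panel), with MPs in blue, APL in red and the replicate number above each point; the bar gives the mean and SD of 3 libraries. The groups are apart for 7 genes and overlap for Alox12 and Alox15.

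Per length, the same genes led in both groups. In MPs the mean FPKM was 192 ± 20.2 (SD, n = 3) for Lta4h and 130 ± 14.6 for Alox5ap, above 97.7% and 96.3% of the genes tested. Ptgs1 followed with 15.4 ± 2.43 and Alox5 with 5.43 ± 1.26, and none of these neighbours overlapped. Alox15 (2.02 ± 0.324) and Ltc4s (1.85 ± 1.40) overlapped in FPKM, as did Hpgds (0.207 ± 0.0818) and Ptgs2, and Alox12 was lowest at 0.0278 ± 0.00694. In APL the mean FPKM was 339 ± 12.6 for Lta4h, 264 ± 18.7 for Alox5ap, 24.5 ± 0.807 for Ptgs1 and 9.75 ± 0.419 for Alox5, again without overlap of neighbours. Ptgs2 then stood beside Alox15 (1.49 ± 0.428), which it overlapped, and Ltc4s (0.140 ± 0.157), Alox12 (0.0738 ± 0.0507) and Hpgds (0.0221 ± 0.0292) overlapped at the lowest FPKM. The order of the first 4 genes was thus the same in MPs and APL.

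Within MPs the enzymes varied with the library. Of the 9 genes, 6 had their lowest MP value in library 2, where their summed FPKM was 313, beside 370 in library 1 and 357 in library 3. The summed FPKM was lowest in the same library for each of 7 lists of cell type markers and 4 lists of pathway genes described further on. Such a sum follows its most abundant genes, and single genes of a list could differ. Among the erythroid genes Hba-a1 was lowest in library 2 (99.1, 53.5 and 62.5 FPKM in MP libraries 1, 2 and 3). Klf1 was lowest in library 1 (86.0, 93.6 and 107 FPKM). The sum of Kit and Ly6a, genes of the sorted markers, was highest in library 2 (71.6, 76.1 and 73.8). The part of library 2 in the differences from APL was not tested. Patterns like those of the 2 most abundant genes were sought among 10236 genes with a mean of at least 100 scaled fragments, by the distance of log2 profiles over the 6 libraries, each centred on its mean. Nearest to Lta4h were Hdgfrp3 (distance 0.104), Taf7 (0.116) and Pgd (0.117), and nearest to Alox5ap were Man2b1 (0.0851), Cmtm7 (0.0943) and Gpsm3 (0.104).

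Genes around these enzymes were described from 4 lists holding 68 genes, of which 62 were in the table and 59 were tested. In APL 22 of the 59 were higher and 16 lower, a share of 64.4% beside the 46.1% of all genes tested (21.7% higher and 24.4% lower), with a median log2 fold change of 0.26. Of these 62 genes 8 shared their locus with another gene, so that their fragments could be divided wrongly, whereas none of the 9 enzymes did.

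The list for arachidonic acid release and its return to phospholipids held 18 tested genes. Of these 9 were higher, 3 lower and 6 not called (66.7% called), with a median log2 fold change of 0.75. Among the 9 is Cotl1 (log2 fold change 0.89), which is not an enzyme of either step. Pla2g4a, the cytosolic phospholipase A2 that releases arachidonic acid for both branches, had an FPKM of 15.2 ± 1.38 (SD, n = 3) in MPs and 13.7 ± 0.0923 in APL. Its log2 fold change was −0.14 and the libraries overlapped (limma, adjusted p = 0.17). Pla2g5, a secreted phospholipase A2, was close to absent from MPs with 2, 2 and 0 fragments before scaling and had 108, 186 and 140 in APL. The ratio was 124 with an exact 95% interval of 48.3 to 459 for counting error only. Its fitted log2 fold change was 6.24 (limma, adjusted p = 2.3e-06). Dagla, which makes the arachidonic acid ester of glycerol known as an endocannabinoid, rose from a mean FPKM of 0.0250 ± 0.0114 to 2.10 ± 0.157 (log2 fold change 6.12). Lpcat2, which adds fatty acids back to lysophospholipids and makes platelet-activating factor, rose from 3.06 ± 0.591 to 14.7 ± 1.07 FPKM (log2 fold change 2.28), and Pla2g7, which breaks that factor down, rose by 2.18 on the log2 scale. Lpcat2 and Pla2g7 are among the genes that shared a locus. Pla2g4f was called higher at no more than 3 fragments in any library.

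The other synthases were less uniform, with 3 of 12 tested genes higher, 2 lower and 7 not called, so that 41.7% were called beside 46.1% of all genes, and a median log2 fold change of 0.09. Mgst2, a microsomal glutathione transferase that can also conjugate leukotriene A4 to leukotriene C4, had 40.2, 33.6 and 41.0 FPKM in the MP libraries and 166, 181 and 165 in the APL libraries. It was thus high where Ltc4s was near absence, with no overlap, and its log2 fold change was 2.15 with an SE of 0.10 (limma, adjusted p = 2.6e-07). Mgst1 of the same family rose from a mean FPKM of 46.9 ± 5.70 to 147 ± 1.42. Ptges, the inducible prostaglandin E synthase, rose from 0.205 ± 0.0371 to 1.05 ± 0.146 FPKM (limma, log2 fold change 2.31, adjusted p = 1.9e-05). Ptges3, a prostaglandin E synthase that is better known as a chaperone partner, was not called (log2 fold change −0.29). Tbxas1, the thromboxane synthase, fell from 9.61 ± 1.82 to 2.90 ± 0.475 FPKM (limma, log2 fold change −1.72, adjusted p = 3e-05). Akr1b3 had a log2 fold change of 0.40, under the fold limit. Tbxas1 and Akr1b3 also shared a locus with another gene.

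Inactivation and export held 13 tested genes, 5 higher, 5 lower and 3 not called (76.9% called), with a median log2 fold change of 0.26. Ephx2, the soluble epoxide hydrolase, fell from 242 summed fragments in MPs to 3 in APL, a level 70.3 times lower with an exact 95% interval of 23.8 to 343. Hpgd, which inactivates prostaglandins by oxidation, fell from 23 fragments to 5, a level 4.01 times lower with an interval of 1.49 to 13.5. Both intervals cover counting error only. The fitted log2 fold changes were −5.36 for Ephx2 and −1.53 for Hpgd (limma, adjusted p = 4.5e-06 and 0.0052). Cyp4f18, which oxidizes leukotriene B4, rose by 1.45 on the log2 scale, and Dpep2, which turns leukotriene D4 into leukotriene E4, rose by 1.38. Abcc1 and Abcc4, exporters of leukotriene C4 and prostaglandins, had log2 fold changes of 0.10 and 0.52 and were not called. Abcc1 did not pass the test (limma, adjusted p = 0.16), whereas Abcc4 missed only the fold limit (limma, adjusted p = 0.00025).

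**Figure D3:**
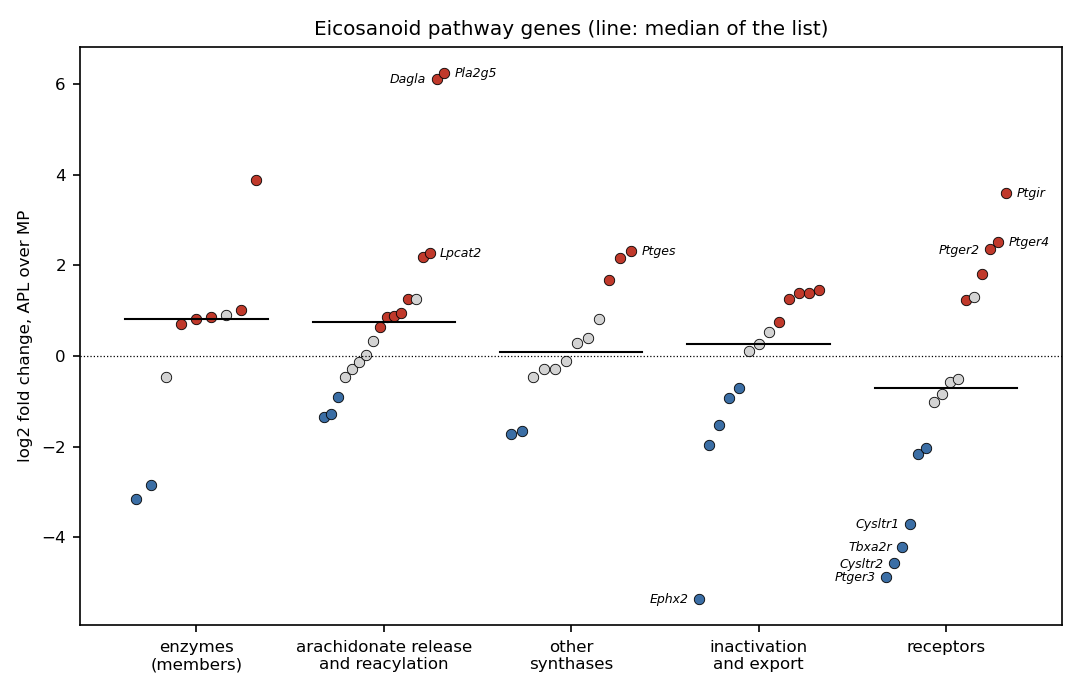
Log2 fold change (y axis, APL over MP) of the 9 enzyme genes and of the tested genes in 4 lists of the eicosanoid pathway; red was called higher, blue lower, grey was not called, and the line is the median of each list. The medians run from 0.82 for the enzymes to −0.70 for the receptors, in which 6 genes were lower and 5 higher.

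Receptors of these mediators changed in both directions, 5 of 16 tested genes being higher, 6 lower and 5 not called (68.8% called), with a median log2 fold change of −0.70. The receptors of cysteinyl leukotrienes, the class that begins with leukotriene C4, fell together with Ltc4s. Cysltr1 had 65 summed fragments in MPs and 2 in APL, a level 28.3 times lower (exact 95% interval 7.53 to 239) at a locus shared with another gene, and Cysltr2 had 94 and 1, a level 81.9 times lower (14.4 to 3270). The thromboxane receptor Tbxa2r had 184 and 6 fragments, a level 26.7 times lower (12.0 to 73.8). These intervals cover counting error only. The fitted log2 fold changes were −3.71 for Cysltr1, −4.58 for Cysltr2 and −4.21 for Tbxa2r (limma, adjusted p = 3.1e-05, 9.1e-06 and 1.1e-05). Ptger3, a receptor of prostaglandin E2, fell from a mean FPKM of 3.87 ± 0.406 to 0.122 ± 0.0719 (limma, log2 fold change −4.87, adjusted p = 3.8e-06). Ltb4r1, the leukotriene B4 receptor, had 31.8 ± 5.43 FPKM in MPs and 22.1 ± 2.60 in APL, and Fpr2 had 4.95 ± 1.45 and 3.15 ± 0.482. Neither was called, at log2 fold changes of −0.50 and −0.57, both within the 1.5-fold limit, but without MP library 2 they were −0.67 and −0.80 and both genes were called lower. The same held when libraries were scaled to the same total (−0.64 and −0.70).

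The 3 receptors that follow fell outside the rule for named genes and were chosen after their values were seen. Ptgir, the prostacyclin receptor, had 1.27, 1.05 and 1.19 FPKM in the MP libraries and 14.3, 15.4 and 13.7 in the APL libraries, without overlap (limma, log2 fold change 3.61, adjusted p = 3.1e-08). Ptger4, a prostaglandin E2 receptor, had 3.25, 3.93 and 3.31 FPKM in the MP libraries and rose to 18.9, 20.9 and 20.2 in the APL libraries (limma, log2 fold change 2.52, adjusted p = 1.1e-07). Ptger2, another of that class, rose from 1.22 ± 0.137 to 6.14 ± 0.536 (limma, log2 fold change 2.35, adjusted p = 6.1e-07). Ptger3 therefore moved against Ptger2 and Ptger4. Ptgfr was called higher at no more than 3 fragments in any library.

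**Figure D4:**
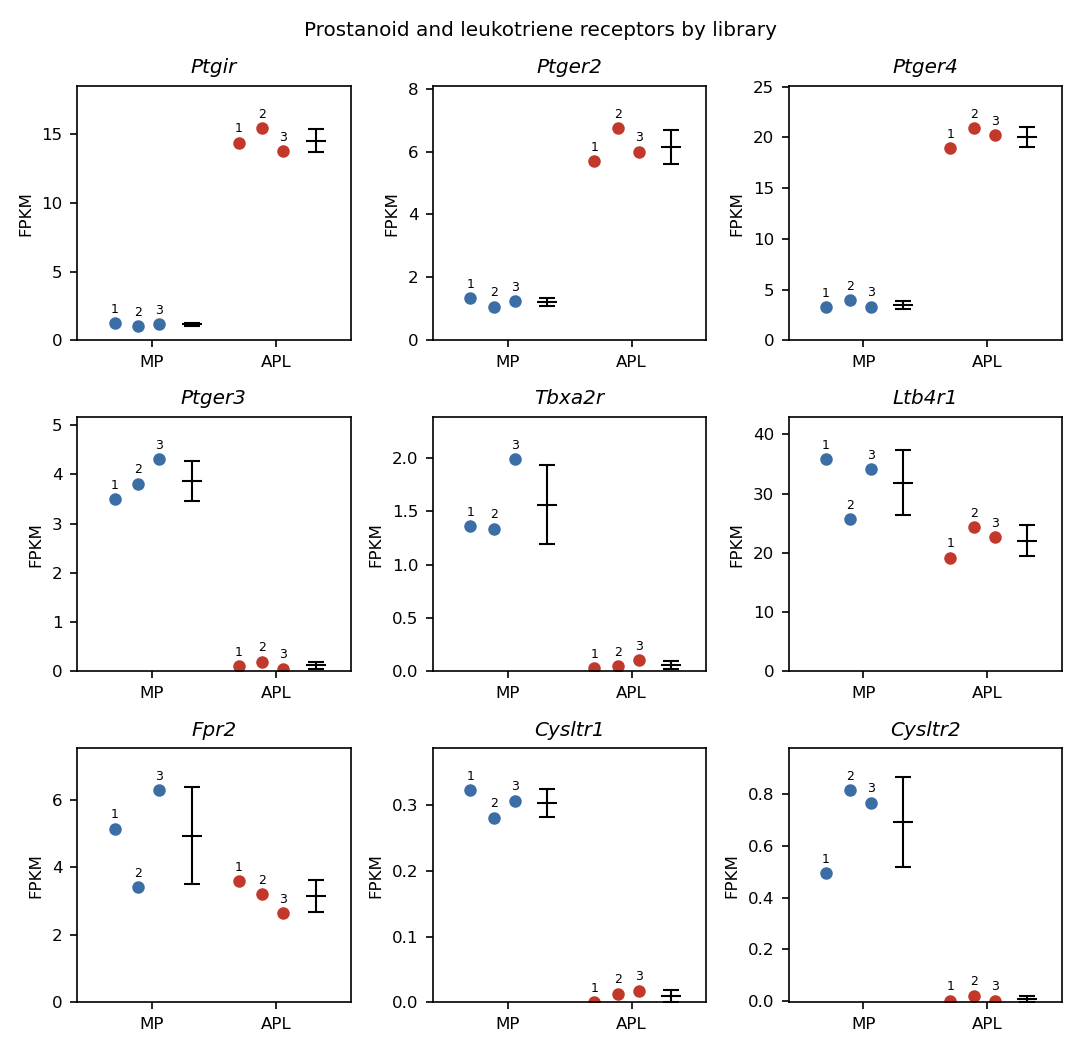
FPKM of 9 receptors of prostaglandins, thromboxane, leukotrienes and lipoxin in each library (y axis, linear, a different range in each panel), with MPs in blue, APL in red, the replicate number above each point and the mean and SD of 3 libraries as a bar. Ptgir, Ptger2 and Ptger4 are higher in APL, Ptger3, Tbxa2r, Cysltr1 and Cysltr2 are lower, and Ltb4r1 and Fpr2 were not called.

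Markers of other cells also differed between the groups, and not all in the same direction. Of 8 tested mast cell and basophil genes, a class known for Hpgds and Ltc4s, 6 were lower and 1 higher, and their summed FPKM was 82.4 to 101 in the MP libraries and 52.3 to 61.0 in the APL libraries. Tpsb2, Tpsab1, Mcpt4 and Mrgprb2 were at 0 in all APL libraries, but only Tpsb2 was tested, with 6, 2 and 3 fragments in the MP libraries, and Tpsab1 and Mrgprb2 had no more than 2 fragments in any MP library. Hdc fell (log2 fold change −1.62) and Mcpt8, a basophil protease, rose (1.13). Mcpt8 made up much of the APL sum, at a mean FPKM of 17.4 in MPs and 38.6 in APL. Cpa3, outside the rule for named genes and added after its values were seen, fell the most. Its mean FPKM was 34.0 in MPs and 0.786 in APL (log2 fold change −5.48). Of 10 tested megakaryocyte and platelet genes, 8 were lower and 0 higher, with a summed FPKM of 76.2 to 116 in MPs and 4.76 to 6.43 in APL. Pf4 and Itga2b fell (log2 fold changes −5.37 and −5.56). Gp6 was at 0 in all APL libraries and had 2, 0 and 0 fragments in the MP libraries, so it was not tested. Of 6 eosinophil genes 4 were lower and 1 higher, with a summed FPKM of 150 to 270 in MPs and 48.4 to 66.3 in APL. Prg2 fell (log2 fold change −2.50) and Siglec5 rose (1.55). Of 10 neutrophil lineage genes, the class known for Alox5, Alox5ap and Lta4h, 5 were higher and 2 lower, with a summed FPKM of 20225 to 27861 in MPs and 72351 to 86948 in APL. Here S100a8 and S100a9, calcium-binding proteins of neutrophils, rose (log2 fold changes 2.17 and 1.10). Ltf and Ngp, genes of later granules that were chosen after their values were seen, fell (−1.42 and −1.46). The genes of the list that were not called were Camp (−0.27), Cebpe (0.24) and Prtn3 (0.12), so the later genes did not all fall. The part of these lineages in the differences of the enzymes was not tested.

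The libraries held 22976881 to 26932327 fragments in MPs and 20608715 to 28382785 in APL before scaling, and the 10 highest genes took 5.11% to 5.59% of an MP library and 7.42% to 10.5% of an APL library, without overlap. Kit, the gene of the sorted c-Kit, was expressed in all libraries and lower in APL, at a mean FPKM of 40.4 ± 0.623 beside 72.4 ± 1.96 (SD, n = 3). Ly6a, a gene of Sca-1, was low in both, at 2.18 ± 0.175 in APL and 1.36 ± 0.355 in MPs. It was called higher in APL (limma, log2 fold change 0.68, adjusted p = 0.043), but this call was lost in 7 of 18 alternatives. Genes on chromosomes 8 and 15 had median log2 fold changes of 0.48 and 0.46, beside −0.10 over all genes tested. No enzyme among the 9 lay on them, and 9 of the 62 listed pathway genes did. Of these, Pla2g15, Lpcat2, Cotl1, Cyp4f18, Dpep2 and Ptger1 on chromosome 8 and Ptger4 on chromosome 15 were called higher. Hpgd on chromosome 8 was called lower, and Pla2g6 on chromosome 15 was not called. The part of these chromosomes in the changes was not tested.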

How the data were processed

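Total RNA of sorted c-Kit+ cells was sequenced in 6 libraries, 3 of normal MPs and 3 of APL. The labels' processing notes name CASAVA 1.8, TopHat2 2.0.6 and mm10, whereas the study's methods name STAR on mm9 and HTSeq-count. The program that made the table is not given in the sources used here. The deposited FPKM values were normalized by the authors to transcript length and to mapped fragments. The deposited fragment columns hold a signal, namely estimated fragments per gene that were multiplied, library by library, before deposit. Division by the step of each library gave whole numbers, within 0.01 fragment, for 84.2% to 87.1% of values, so the main fit used no count model. The exact intervals for genes with few fragments do treat fragments before scaling as counts, and voom, made for counts, was 1 of the alternatives. Libraries were TruSeq without strand. Loci follow GRCm38 and are given counted from 1.

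limma 3.58.1 in R 4.3.3 (lmFit, eBayes with trend) was run on log2(scaled fragments + 1) for genes of at least 1 in at least 3 libraries, with Benjamini-Hochberg adjustment over 14595 genes. In simulated data with 200 of 14689 genes changed, 196 were recovered with 3 false calls. The changed genes were drawn only from genes with higher means than Ltc4s, Hpgds and Alox12 had over all libraries. The share changed was also far smaller than the share called in the data. These figures therefore do not cover genes with so few fragments or so large a share of changes. Exact permutation tests were two-sided. Ratios of summed fragments have exact binomial intervals and take into account the authors' scaling of each library, not its total fragments. These intervals cover counting error and not the spread between libraries. Promoters are from RefSeq GRCm38.p6. Figures were drawn with matplotlib 3.10.9.

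The enzymes, lists and rules were chosen with earlier results of these data known. Named genes were the 9 enzymes, in each pathway list up to 4 called genes of the largest change without overlap of the groups and up to 2 genes not called of the highest FPKM, and in each marker list the 2 of the highest FPKM and those at 0 in APL. The values of some genes are not reported here. Alternatives covered the filter, pseudocount, normalization, FPKM, voom, a replicate block, call rules and leaving out each library.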

Additional observations from a re-analysis of the deposited data

How the results depend on the processing

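Over 18 alternatives, 151 of 157 values of the 9 enzymes kept their direction and their side of the threshold and 0 reversed. Alox12 was called higher under quantile normalization (log2 fold change 1.49) and without APL library 2, Alox15 was called lower and Ptgs1 missed the fold limit when libraries were scaled to the same total or fitted with voom (−0.59 and 0.58 in both), which moved the median of all genes by −0.13. With at least 10 scaled fragments in 3 libraries 1 enzyme was lower, because Ltc4s was not tested, and with at least 1 in all 6 libraries 0 were lower, because neither Ltc4s nor Hpgds was tested, and 10 genes of the 4 lists were. With a fold over 2, 2 enzymes were higher and 2 lower, beside 2171 and 2427 of all genes. On FPKM the log2 fold change of Ptgs2 was 3.00, and a pseudocount of 5 gave −1.57 for Ltc4s and −1.92 for Hpgds. Of the other named genes, 750 of 769 values kept their call and 5 reversed: Abcc1, at −0.0261 with the same total and −0.0260 with voom, and Cd3d, at 0.46 under quantile normalization, 0.16 without MP library 3, 0.0021 without APL library 1 and −0.44 to 0.16 over all libraries left out. The cause was not tested. Leaving out each library gave 5 to 6 enzymes higher and 2 lower, 21 to 23 and 15 to 17 genes of the 4 lists, and 3016 to 3294 and 3325 to 3586 genes of all, with differences of log2 ratios of 0.06 to 0.28 (Alox5ap to Alox5), 3.17 to 4.59 (Lta4h to Ltc4s) and −3.68 to −3.08 (Ptgs1 to Ptgs2). The libraries share replicate numbers. Same-numbered libraries correlated at 0.105, 0.0124 and 0.113 in their deviations over 12535 genes, beside a mean of −0.0383 for the other pairs. These weak correlations do not settle whether the numbers pair the libraries. The replicate block gave 6753 calls beside 6725, of which 6673 were shared, and left the calls of the enzymes as they were. Depth limits Ltc4s, Hpgds and Alox12.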

Other observations

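Other lineages in the sorted cells were measured by further marker lists. Of 7 tested erythroid genes 6 were lower and 0 higher in APL, with a summed FPKM of 246 to 292 in the MP libraries and 9.80 to 19.0 in the APL libraries. Klf1, a regulator of red cell genes, fell by 7.57 on the log2 scale and the globin gene Hba-a1 by 2.87. Of 6 tested B and T lymphoid genes 4 were lower and 0 higher, with a summed FPKM of 13.0 to 16.4 in MPs and 1.09 to 1.76 in APL, and Cd3g and Rag1 were at 0 in all APL libraries, Cd3g being untested with 3, 1 and 7 fragments in the MP libraries. Cd79b, part of the B cell receptor, fell by 5.62 on the log2 scale, and Cd3d was not called at −0.10. Of 10 monocyte and macrophage genes 6 were lower and 3 higher, with a summed FPKM of 66.6 to 80.1 in MPs and 59.8 to 66.0 in APL. Ms4a6c fell by 2.05 on the log2 scale and Cd68 rose by 2.16, so that this list did not move as a whole.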
